A study of Mus musculus with 4 samples.

Results

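The genes described here are those encoded by mitochondrial DNA, the small circular genome that mitochondria keep. Members were the entries of the deposited count table whose Ensembl identifier carries a symbol starting with mt- in GENCODE M21. They numbered 13 of the 34866 genes listed, and all 13 are protein-coding. GENCODE M21 places 37 genes on mitochondrial DNA, of which 2 encode ribosomal RNA and 22 transfer RNA, and those 2 classes had 0 entries in the table used here and were not analysed here. RNA was sequenced from mouse neural stem and progenitor cells of the E11.5 dorsal telencephalon, transduced with lentivirus when plated and grown for 5 days as neurospheres, floating clusters of cells, in medium with basic fibroblast growth factor. Cells of the sh3F group received 3 vectors with short hairpin RNAs against Phf21b, Zfp7 and Zfp57, each at a multiplicity of infection of 10. Cells of the shControl group received a single vector with a control hairpin at a multiplicity of infection of 30. All cells were wild type before transduction, both groups carried lentivirus, with the hairpins against Zfp7 and Zfp57 in pLV-EG, that against Phf21b in pCS-EG and the control in CS-EG vectors. Each group had 2 libraries, and nothing states that these came from separate cultures, so a p-value here reflects the spread between libraries that may be technical repeats. The labels state neither mouse strain nor sex.

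Mitochondrial DNA codes for a small set of membrane subunits of the respiratory chain and ATP synthase, together with the ribosomal and transfer RNAs needed to translate them inside the organelle. Both strands are transcribed as long precursors, which are cut, mostly at the transfer RNAs, into separate messengers. All other subunits of these complexes, and all proteins that copy, transcribe and translate mitochondrial DNA, are encoded in the nucleus. The mt-Nd genes encode subunits of complex I, mt-Cytb encodes cytochrome b of complex III, mt-Co1, mt-Co2 and mt-Co3 encode subunits of complex IV (cytochrome c oxidase), and mt-Atp6 and mt-Atp8 encode subunits of ATP synthase. Stretches of mitochondrial DNA have also been copied into nuclear chromosomes during evolution, and such copies carry nearly the same letters as the mitochondrial genes.

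Total counts per library were 14694387 to 20779211. The markers of neural progenitors Sox2, Pax6, Nes and Fabp7 were present in all 4 libraries, with Fabp7 at 20078 and 22741 CPM, counts scaled to a common library size, in sh3F and 22415 and 27521 CPM in shControl. The knockdown check did not pass for any target: Phf21b, Zfp7 and Zfp57 had log2 fold changes of -0.29, -0.37 and -0.40 in sh3F over shControl (edgeR adjusted p = 0.644, 0.80 and 0.341). Their unadjusted edgeR p-values were 0.178, 0.368 and 0.0311. Both sh3F libraries lay below both shControl libraries for Phf21b and Zfp57, as for 21.7% of all tested genes. For Zfp7 the groups overlapped.

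Nuclear genes that shared at least 50% of their 31-mers (stretches of 31 letters) with a mitochondrial gene, called copies here, existed for 7 of the 13 members. On chromosome 1, minus strand, 7 genes annotated as unprocessed pseudogenes lie within chr1:24611535-24616197 of GRCm38, a span of 4663 bases. They follow the order of the mitochondrial genes from mt-Co1 to mt-Nd4. Over 4149 aligned bases the copies differed from the mitochondrial genes at 7 positions, an identity of 99.83%. Of these positions 6 lay in Gm29216, the copy of the last part of mt-Co1, and all 6 fell near its start, from T1056A to A1066T (positions counted from the first base of mt-Co1, mitochondrial base first). The copies of mt-Co2, mt-Atp6, mt-Co3, mt-Nd4l and mt-Nd4 (Gm28661, Gm10925, Gm28437, Gm10222 and Gm28439) had 0 substitutions in the aligned part. The percentage of 31-mers also found in a nuclear gene was 100% for mt-Co2, 99.9% for mt-Co3, 99.5% for mt-Atp6, 98.9% for mt-Nd4l, 98.1% for mt-Nd3, 63.9% for mt-Co1 and 62.8% for mt-Nd4. A pair of chromosome 2 pseudogenes lay just under the 50% rule, Gm13341 with 48% (mt-Co2) and Gm13340 with 45.2% (mt-Co1), with mean counts of 10.3 and 18.5 per library. The percentage of 31-mers in a nuclear gene was 0% for mt-Nd1, and 16.8% or less for mt-Nd2, mt-Nd5, mt-Nd6, mt-Cytb and mt-Atp8, where that of mt-Atp8 lies in its overlap with mt-Atp6.

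The pair on which the main result turns is mt-Nd3, a complex I subunit, and its copy Gm28438. Over 345 aligned bases they differ at a single position, T3C, the last letter of the start codon, and the mitochondrial gene has 3 further bases at its end, the stop codon. The opening 120 bases of each are shown because they hold this only difference, which is in capitals. The stretches are chrM:9459-9578, plus strand, and chr1:24613000-24613119, minus strand, from the GENCODE M21 transcripts (GRCm38).
mt-Nd3: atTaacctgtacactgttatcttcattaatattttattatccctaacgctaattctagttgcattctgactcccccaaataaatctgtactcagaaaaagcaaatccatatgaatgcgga
Gm28438: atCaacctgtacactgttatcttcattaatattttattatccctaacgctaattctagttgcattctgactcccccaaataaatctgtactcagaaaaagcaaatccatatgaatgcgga

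Other members share letters with a mitochondrial neighbour. The messenger of mt-Atp8 runs on into mt-Atp6, with 43 bases in common, and that of mt-Nd4l into mt-Nd4, with 7. Both shorter genes are shown whole because their levels per length stood apart. The capitals mark the bases that also belong to the next gene. They lie at chrM:7766-7969 and chrM:9877-10173, plus strand.
mt-Atp8: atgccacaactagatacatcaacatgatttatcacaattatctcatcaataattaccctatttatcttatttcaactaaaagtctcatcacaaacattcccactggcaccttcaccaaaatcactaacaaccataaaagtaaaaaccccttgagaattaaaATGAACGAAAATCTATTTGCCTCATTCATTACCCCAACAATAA
mt-Nd4l: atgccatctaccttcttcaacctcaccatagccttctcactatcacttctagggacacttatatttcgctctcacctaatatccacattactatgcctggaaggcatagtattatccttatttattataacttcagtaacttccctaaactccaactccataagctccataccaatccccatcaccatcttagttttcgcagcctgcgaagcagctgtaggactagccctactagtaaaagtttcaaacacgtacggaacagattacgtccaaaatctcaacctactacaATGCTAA

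The deposited counts were divided between genes and copies very unevenly. Of the counts given to mt-Nd3 and Gm28438 together, the nuclear copy held 84.2% and 85.0% in sh3F libraries and 81.8% and 81.2% in shControl libraries. Gm28438 thus had 179540 and 152451 estimated counts in sh3F and 219431 and 199597 in shControl, while mt-Nd3 had 33757 and 26831 in sh3F and 48809 and 46299 in shControl. Gm10222 and Gm28439, which hold no difference from mt-Nd4l and mt-Nd4 in the aligned part, were listed at 0 in every library. Counting error alone allows up to 3 counts per library for a 0. That bound does not cover how reads were divided between identical sequences. For the pair of mt-Co2 and Gm28661 the copy held 18.9% and 20.6% in sh3F and 18.0% and 14.7% in shControl. It held 5.05% and 5.90% in sh3F and 3.78% and 4.28% in shControl for mt-Co1 and Gm29216. In these 3 pairs the part on the copy was higher in both sh3F libraries than in either shControl library. Such a division has no counterpart over all genes to set beside it, and the difference was not tested. In the other 2 pairs with counts the groups overlapped, with 6.82% to 7.69% on Gm10925 (mt-Atp6) and 1.01% to 1.30% on Gm28437 (mt-Co3). A transcript quantifier divides reads that fit several transcripts by a model. The labels give no strain, so these mice may not carry the annotated base at T3C. Why most counts of the mt-Nd3 pair fell on the copy was not tested. Reads from parts where gene and copy are identical cannot be assigned to either by sequence. Values are therefore given for the mitochondrial entries alone and for their sums with the copies.

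**Figure D1:**
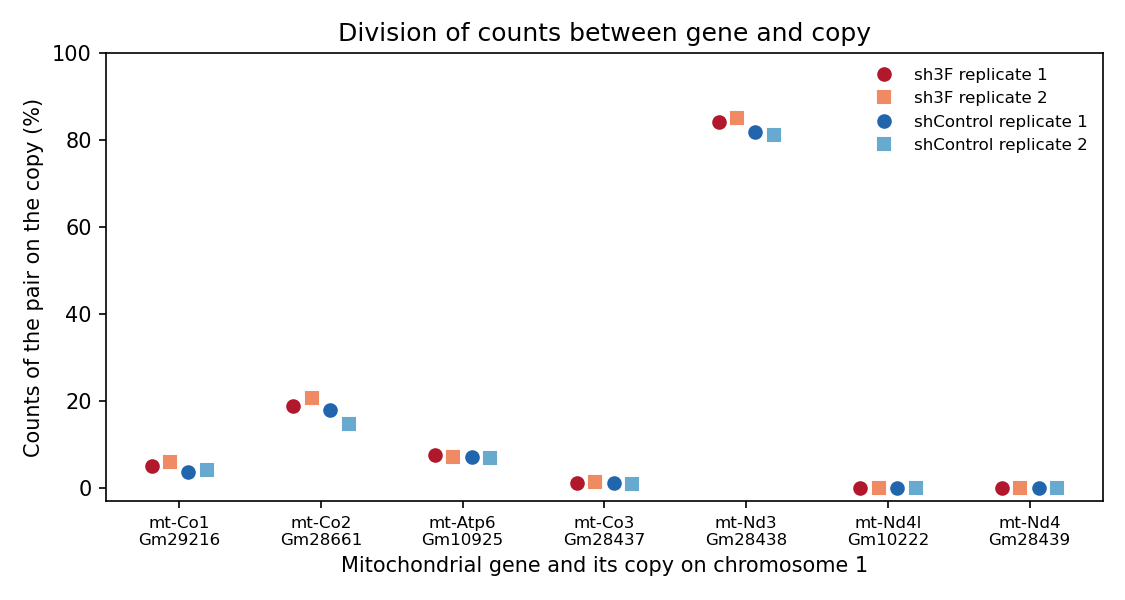
Percentage of the counts of each mitochondrial gene and its chromosome 1 copy that was assigned to the copy (vertical axis), for 7 pairs along the horizontal axis and 4 libraries as points. The copy Gm28438 held 81.2% to 85.0% of its pair with mt-Nd3, and the other copies held at most 20.6% of theirs.

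The share of counts on mitochondrially encoded genes was smaller in both sh3F libraries than in either shControl library, in a design too small for a test of it to pass. The 13 genes took 26.6% and 28.5% of the counts in sh3F libraries and 30.3% and 33.9% in shControl libraries. The groups did not overlap. The mean was 27.6% ± 1.36 in sh3F and 32.1% ± 2.59 in shControl (SD, n = 2 each), a difference of -4.55 percentage points. With the copies added the shares were 29.0% and 31.2% in sh3F and 32.9% and 36.9% in shControl. A two-sided exact permutation test gave p = 0.333 for both versions, which is the smallest value that 2 against 2 libraries allow, so neither difference could pass the threshold. Counting error alone was small, with a 95% Wilson interval of at most 0.0242 percentage points on either side of a share. The 7 copies alone held 2.45% and 2.72% in sh3F and 2.62% and 2.92% in shControl, where the groups overlapped. Without shControl replicate 2, the library with the highest share, the difference in share was -2.72 points, and without shControl replicate 1 it was -6.38 points.

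**Figure D2:**
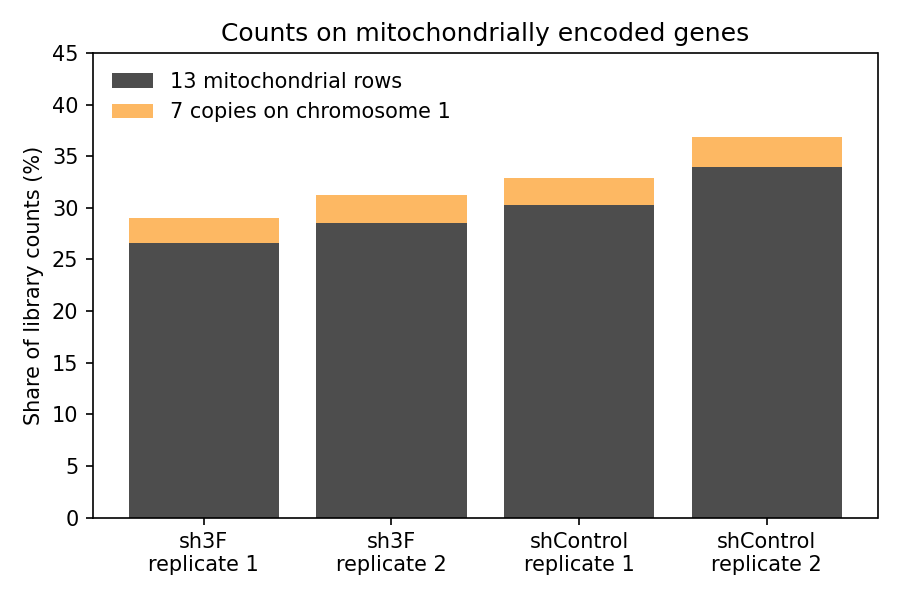
Share of each library's counts (vertical axis, percent) on the 13 mitochondrial genes (dark) and on their 7 chromosome 1 copies (orange), 1 bar per library. The sh3F bars reach 29.0% and 31.2%, and the shControl bars 32.9% and 36.9%.

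Markers of other cells also moved with the groups. The summed level of 12 neuron markers was 854 and 888 CPM in sh3F and 1179 and 1053 CPM in shControl, with 3 of 12 lower and 0 higher past the threshold (Neurod6, Tubb3 and Nsg2), against 0.826% of all tested genes lower. The count was 1 with library totals alone and without either sh3F library, and 5 without shControl replicate 2. The summed level of 11 red blood cell markers was 42.3 and 40.3 CPM in sh3F and 27.5 and 30.0 CPM in shControl, with Hbb-y the single gene of 6 tested that rose, against 0.541% of all tested genes higher. This call was lost with library totals alone, with DESeq2, with the replicate block and without either sh3F library. The 12 progenitor markers summed to 20628 and 23324 CPM in sh3F and 22990 and 28042 CPM in shControl, and nearly all of this was Fabp7. Of these 12 markers, 9 were below 0, where 51.1% of all tested genes were. Their median log2 fold change was -0.17, with 0 past the threshold. The 10 myeloid markers summed to 40.0 and 34.2 CPM in sh3F and 36.4 and 38.9 CPM in shControl. In the progenitor and myeloid sums the groups overlapped, and 0 markers of the 4 lists were at 0 in all libraries. The part of cell makeup in the mitochondrial share was not tested, and in bulk RNA fewer cells of a type and less RNA per cell cannot be told apart.

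Levels of the members differed over a wide range. Per length of transcript, and with copies summed, the highest were the complex IV genes mt-Co2 (chrM:7013-7696), with a mean over all 4 libraries of 77151 CPM per kb, and mt-Co3 (chrM:8607-9390), with 74154 CPM per kb. These were followed by mt-Atp6 (chrM:7927-8607) at 52646 CPM per kb and mt-Co1 (chrM:5328-6872), which carries the catalytic centre of cytochrome c oxidase, at 43608 CPM per kb. The middle of the order held mt-Nd3 (38734), mt-Nd1 (34315), mt-Cytb (22694), mt-Nd2 (14221) and mt-Nd4 (11211 CPM per kb). The lowest were mt-Nd4l (6351), mt-Atp8 (3992), mt-Nd5 (3694) and mt-Nd6 (2132 CPM per kb). The lowest, mt-Nd6 (chrM:13552-14070), is the only protein-coding member on the minus strand of the annotation, and mt-Co2 exceeded it 30.4-fold to 42.2-fold within a library. Neighbours in this order could change places: mt-Co2 over mt-Co3, mt-Co1 over mt-Nd3, mt-Nd3 over mt-Nd1 and mt-Atp8 over mt-Nd5 each held in 3 of 4 libraries, and the other 8 steps held in 4 of 4.

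The level per length of the shortest members was below that of the genes on the same messenger. The level of mt-Atp8, a transcript of 204 bases, was 12.5-fold to 14.6-fold below that of mt-Atp6 in CPM per kb, although both are known to be translated from a shared messenger. The level of mt-Nd4l (297 bases) was 1.74-fold to 1.80-fold below that of mt-Nd4. Full lengths were used here, and how the quantifier corrected for the length of short transcripts is not stated in the labels, so levels of members this short are uncertain.

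**Figure D3:**
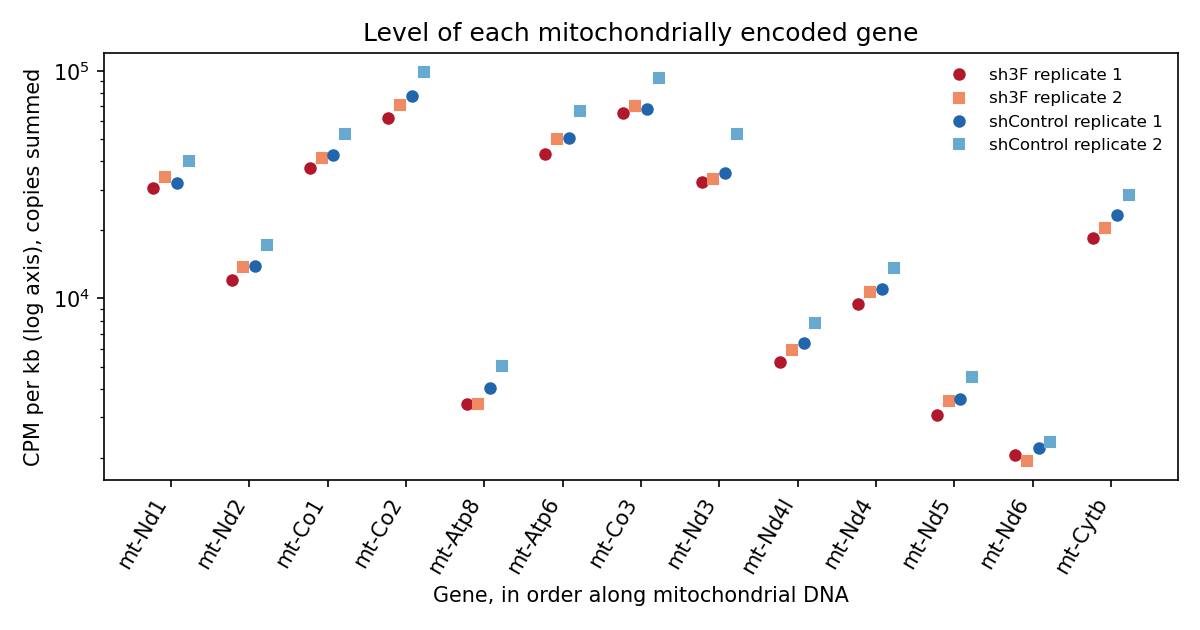
Level of the 13 genes in the order they have along mitochondrial DNA (horizontal axis), as CPM per kb of transcript with copies summed (vertical axis, logarithmic), 1 point per library. From mt-Co2 at 62030 to 98505 down to mt-Nd6 at 1939 to 2336 CPM per kb, shControl replicate 2 is the highest library for each of the 13 genes.

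Each of the 13 genes had a negative log2 fold change in sh3F over shControl, and only mt-Nd3 passed the threshold. Fold changes lay between -0.70 and -0.16, with a median of -0.31, against a median of -0.01 over all 14050 genes tested. A negative value was found for 51.1% of all tested genes. By edgeR's quasi-likelihood test with Benjamini-Hochberg adjustment, 1 of the 13 genes was past 0.05, against 0.826% of all tested genes on the lower side and 0.541% on the higher side. At an unadjusted p under 0.05, 5 of 13 were lower and 0 higher, against 6.85% of all genes lower. Both sh3F libraries lay below both shControl libraries for 11 of 13 genes, against 21.7% of all genes, and above them for 0, against 19.6%. Since the members are cut from shared precursors, these are not counts of independent genes. Without shControl replicate 2 the value of mt-Nd1 was 0.026, above 0.

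The complex I gene mt-Nd3 (chrM:9459-9806) passed as an entry alone and not as a sum with its copy. The mitochondrial entry of mt-Nd3 measured 1797 and 1746 CPM in sh3F and 2264 and 3474 CPM in shControl. The groups did not overlap, and the control libraries differed from each other by more than the lower of them differed from sh3F. This gave -0.70 on the log2 scale for sh3F over shControl (edgeR adjusted p = 0.0122, SE 0.17), or 61.8% of control with a 95% interval of 49.0% to 77.9%. Summed with Gm28438, it measured 11356 and 11667 CPM in sh3F and 12442 and 18453 CPM in shControl. The sum gave -0.42 on the log2 scale (edgeR adjusted p = 0.31, SE 0.19), or 74.5% of control (57.7% to 96.2%), and did not pass. Leaving out shControl replicate 2 gave -0.10 for the sum, and leaving out shControl replicate 1 gave -0.68. The copy alone had a log2 fold change of -0.37 (adjusted p = 0.415). As an entry alone mt-Nd3 also missed the threshold with DESeq2, with the replicate number as a block (adjusted p = 0.0796), and without sh3F replicate 1, sh3F replicate 2 or shControl replicate 2 (adjusted p = 0.664, 0.556 and 0.087). Its log2 fold change was -0.69 with DESeq2, -0.66 with the block, and -0.72 and -0.68 without sh3F replicate 1 and sh3F replicate 2. Without shControl replicate 2 it was -0.34, and without shControl replicate 1 it was -0.97.

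With copies summed, 0 of 13 genes passed in edgeR, against 0.819% of all genes on the lower side. At an unadjusted p under 0.05, 5 were lower, against 6.85% of all genes, and DESeq2 and limma-voom gave 0 of 13 past the threshold as well. In 11 of 13 genes both sh3F libraries were again below both shControl libraries (21.7% of all genes). The median log2 fold change was -0.30. Leaving out shControl replicate 1 gave 11 of 13 genes past the threshold on the lower side, with or without copies summed, against 1.25% and 1.27% of all genes, and the exceptions were mt-Nd1 and mt-Nd6. Leaving out any other library gave 0 of 13. With library totals alone as scaling, 2 of 13 entries were lower without copies summed, mt-Nd3 and mt-Co2, against 0.199% of all genes.

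**Figure D4:**
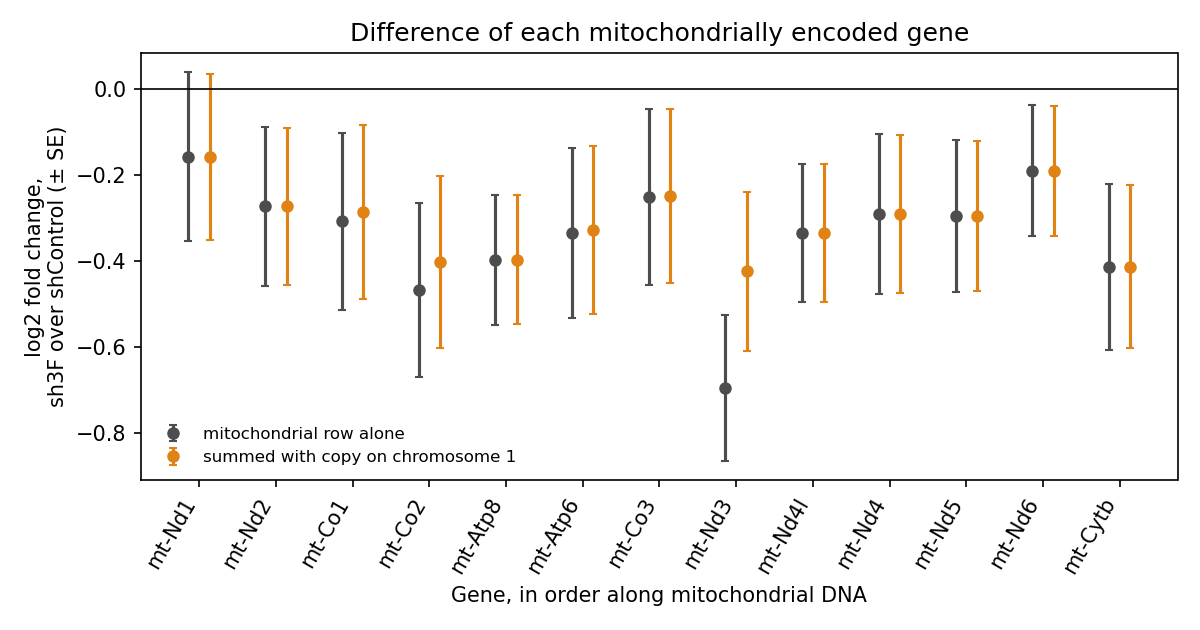
Log2 fold change of sh3F over shControl with its SE (vertical axis) for the 13 genes in mitochondrial order, for the mitochondrial entry alone (dark) and summed with its chromosome 1 copy (orange). All values lie below 0, and mt-Nd3 moves to -0.42, against -0.70 as an entry alone.

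Among the complex IV genes, mt-Co2, which carries the copper centre that takes electrons from cytochrome c, had the lowest fold change. With its copy it measured 42428 and 48469 CPM in sh3F and 52810 and 67377 CPM in shControl. The groups did not overlap, and on the log2 scale sh3F stood at -0.40 (edgeR adjusted p = 0.405, SE 0.20), 75.6% of control with an interval of 57.4% to 99.6%. For mt-Co1 and mt-Co3 the sums gave -0.29 and -0.25 (adjusted p = 0.624 and 0.683). Without shControl replicate 2 these were -0.11 for mt-Co1 and -0.00020 for mt-Co3, and without shControl replicate 1 they were -0.43 and -0.46. With copies summed, the log2 fold changes of all 13 genes lay between -0.25 and 0.026 without shControl replicate 2. The libraries of mt-Co3 overlapped, at 51275 and 54958 CPM in sh3F and 53569 and 72746 CPM in shControl.

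Cytochrome b is the only mitochondrially encoded subunit of complex III, and 6.55% of the 31-mers of its gene were also found in a nuclear gene. Its gene mt-Cytb (chrM:14145-15288) measured 21136 and 23391 CPM in sh3F and 26644 and 32676 CPM in shControl, and the groups did not overlap. On the log2 scale the difference was -0.41 (edgeR adjusted p = 0.345, SE 0.19), 75.1% of control with an interval of 57.8% to 97.5%. ATP synthase subunits gave -0.40 for mt-Atp8 (SE 0.15, adjusted p = 0.201) and -0.33 for mt-Atp6 with its copy (SE 0.20, adjusted p = 0.525). For mt-Atp8 the levels were 703 and 702 CPM in sh3F and 825 and 1027 CPM in shControl, again without overlap.

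The other complex I genes had log2 fold changes of -0.34 to -0.16. The value for mt-Nd1 (chrM:2751-3707), a membrane subunit near the quinone-binding site, was -0.16 (SE 0.19, edgeR adjusted p = 0.82), with an interval of 68.7% to 117% of control. Its libraries overlapped, at 29201 and 32872 CPM in sh3F and 30742 and 38541 CPM in shControl. For mt-Nd2 (chrM:3914-4951), mt-Nd4 (chrM:10167-11544) and mt-Nd5 (chrM:11742-13565), which encode the antiporter-like subunits of the proton-pumping arm, log2 fold changes were -0.27, -0.29 and -0.30 (adjusted p = 0.593, 0.56 and 0.515). For mt-Nd4l the value was -0.34 (adjusted p = 0.373). The minus-strand gene mt-Nd6 measured 1060 and 1006 CPM in sh3F and 1146 and 1213 CPM in shControl, without overlap and with a log2 fold change of -0.19 (adjusted p = 0.675, SE 0.15). The labels do not state whether the libraries kept strand, and mt-Nd6 overlaps mt-Nd5 by 14 bases on the opposite strand, so reads from the 2 strands may not be told apart.

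Complex IV genes held the largest part of the mitochondrial counts in all 4 libraries. With copies summed, they took 54.7% and 54.2% of the mitochondrial counts in sh3F and 54.4% and 54.6% in shControl, and ATP synthase genes 10.8% and 11.4% in sh3F and 11.2% and 11.4% in shControl. The groups overlapped in both. Complex I genes together took 26.9% and 26.8% in sh3F and 26.0% and 26.0% in shControl, and mt-Cytb took 7.64% and 7.58% in sh3F and 8.40% and 8.04% in shControl, without overlap. Among single genes the groups did not overlap for 3 of 13. In CPM, the groups did not overlap for 19.6% of all tested genes on the higher side and 21.7% on the lower side. These are a different measure from shares of the mitochondrial counts, so the percentages are not ranked against each other. In CPM with copies summed, 11 of 13 members were lower without overlap and 0 higher. The share of mt-Nd1 was higher in sh3F, at 10.6% and 10.7%, than in shControl, at 9.69% and 9.48%, the single case on that side (7.69% of the members). Those of mt-Co2, at 15.3% and 15.7% in sh3F against 16.7% and 16.6% in shControl, and of mt-Cytb were lower (15.4% of the members). For mt-Nd3 with its copy the shares overlapped, at 4.10% and 3.78% in sh3F and 3.92% and 4.54% in shControl. As an entry alone they were 0.709% and 0.620% in sh3F and 0.776% and 0.928% in shControl, without overlap. These shares are a description, and the differences between genes were not tested.

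**Figure D5:**
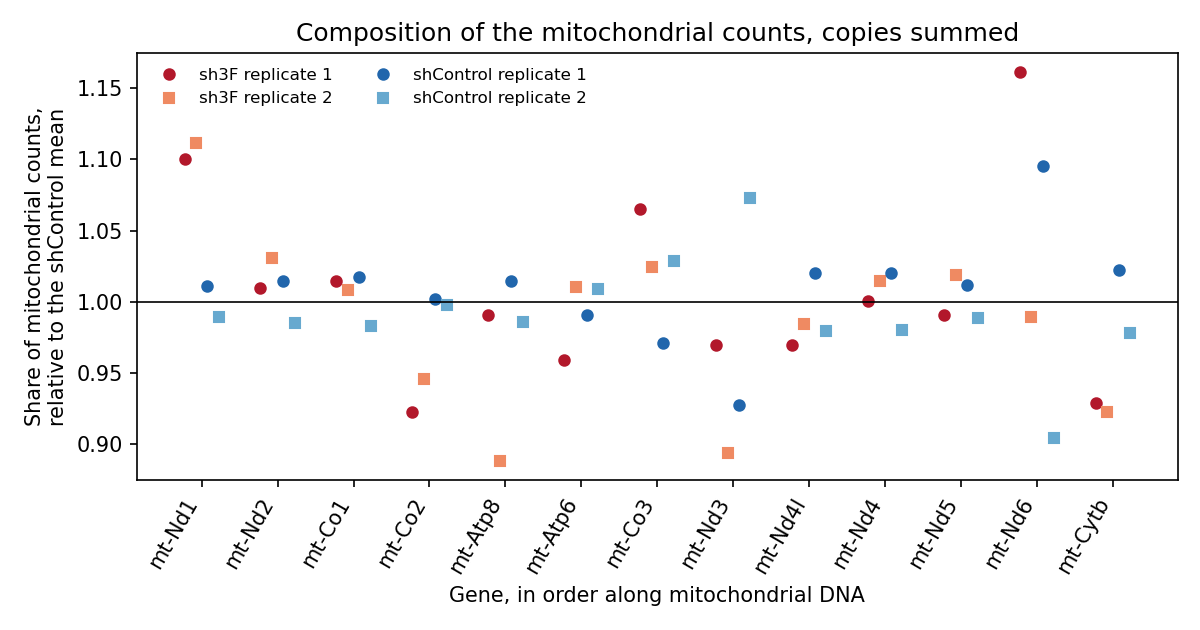
Share of each gene in the mitochondrial counts of a library, copies summed, relative to the mean of the 2 shControl libraries (vertical axis), for the 13 genes in mitochondrial order and 4 libraries. Both sh3F points lie above both shControl points for mt-Nd1, and below them for mt-Co2 and mt-Cytb.

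Nuclear genes of the same organelle did not pass the threshold in either direction. The 11 lists held 279 tested genes for the upkeep, transcription, RNA processing and translation of mitochondrial DNA, for respiratory chain and ATP synthase subunits, and for biogenesis and protein quality control. Of these 0 rose and 0 fell (edgeR adjusted p; 0 also in DESeq2 and limma-voom), against 1.37% of all tested genes. At an unadjusted p under 0.05, 17 were higher and 4 lower, against 5.14% and 6.85% of all genes. Their median log2 fold change was 0.07, and 186 of 279 were above 0, where 51.1% of all tested genes were below 0. Both sh3F libraries lay above both shControl libraries for 95 of the 279 genes, against 19.6% of all genes. They lay below them for 23, against 21.7% of all genes. Without shControl replicate 1, 6 rose and 4 fell, against 2.04% of all genes in either direction. Without shControl replicate 2, 4 rose and 3 fell, against 4.1% of all genes.

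The partners of the mitochondrial subunits gave medians near 0. The 36 tested nuclear complex I genes had a median log2 fold change of 0.01, the 9 of complex III -0.04, the 11 of complex IV -0.03 and the 17 of ATP synthase 0.05, with 0 past the threshold in each. With library totals alone the medians were 0.09, 0.05, 0.07 and 0.13, against 0.07 over all tested genes. The complex IV gene Cox7c measured 2947 and 2907 CPM in sh3F and 2648 and 3642 CPM in shControl, and the ATP synthase gene Atp5g3, which encodes a c-ring subunit, 1432 and 1376 CPM in sh3F and 1341 and 1532 CPM in shControl. In both the groups overlapped. The complex III gene Uqcrh measured 1199 and 1205 CPM in sh3F and 1164 and 1485 CPM in shControl.

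Of the genes that act on mitochondrial DNA and its transcripts, 0 passed the threshold. The 21 genes of transcription and replication had a median log2 fold change of 0.09, the 37 of RNA processing and stability 0.11, the 21 translation factors 0.03 and the 18 aminoacyl-tRNA synthetases 0.05. The 82 mitoribosome proteins had a median of 0.10, and 70 of 82 were above 0, with 8 higher and 0 lower at an unadjusted p under 0.05. Over all tested genes 51.1% were below 0, and 5.14% were higher and 6.85% lower at that threshold. The 15 regulators of biogenesis had a median of -0.11, and the 13 chaperones and proteases of 0.06. Ssbp1, the single-stranded DNA-binding protein of mitochondria, measured 217 and 250 CPM in sh3F and 211 and 250 CPM in shControl, and Slirp, an RNA-binding partner of Lrpprc, 318 and 330 CPM in sh3F and 312 and 422 CPM in shControl. Tfam, which packages mitochondrial DNA and starts its transcription, is named after its values were seen, outside the rule for naming genes. It measured 26.3 and 27.4 CPM in sh3F and 37.8 and 34.7 CPM in shControl, without overlap (log2 fold change -0.44, SE 0.15, edgeR adjusted p = 0.135). Esrra, also of the 11 lists and also named for its value, was lower still, at -0.78 (edgeR adjusted p = 0.0689). Of the 279 nuclear genes, 17 were higher and 4 lower at an unadjusted edgeR p under 0.05. A link between Tfam and the mitochondrial transcripts was not tested. In the list of Tfam, transcription and replication, 6 of 21 genes were below 0. At an unadjusted p under 0.05, 2 of them were lower and 1 gene of the list was higher.

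Gm20594, a gene on chromosome 6 annotated as protein-coding, shares 42 of its 31-mers, or 10%, with mt-Rnr2, which encodes the large ribosomal RNA of mitochondria. It measured 613 and 632 CPM in sh3F and 533 and 654 CPM in shControl (log2 fold change 0.07, edgeR adjusted p = 0.908). No other nuclear gene of GENCODE M21 was found to share a 31-mer with either mitochondrial ribosomal RNA gene.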

How the data were processed

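RNA was sequenced from 2 sh3F and 2 shControl libraries made with an NEBNext Ultra II RNA kit from 100 ng of total RNA, per the labels. The authors deposited estimated counts per gene, not normalized, made with Salmon on GRCm38 and mm10, per the submitters' processing notes; its version and annotation and the RNA selection are not stated there. Values carry at most 6 significant digits. From them, counts were rounded and fitted in edgeR 4.0.16 (R 4.3.3), scaled by TMM (1.05 and 1.01 for sh3F, 1.04 and 0.907 for shControl), after filterByExpr with a minimum count of 10 (14050 genes), by the two-sided quasi-likelihood F test and Benjamini-Hochberg adjustment over all tested genes, with a threshold of 0.05. SE is the size of the log2 fold change over the square root of F. CPM is scaled by TMM. The fit was first tested on simulated data. Of 34866 identifiers, 34652 matched GENCODE M21. Nuclear copies share at least 50% of their 31-mers with a mitochondrial gene, by transcript sequence, and were aligned with Biopython 1.88. DESeq2 1.42.0 and limma 3.58.1 served as alternatives. Of each nuclear list, up to 3 genes past the threshold or the 2 with the highest CPM could be named, and every member, copy and target. Tfam and Esrra were named outside this rule. Members and lists were chosen with earlier results of these data known. Intervals from counts cover counting error only.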

Additional observations from a re-analysis of the deposited data

How the results depend on the processing

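The number of mitochondrially encoded genes past the threshold, 1 in the reported fit, was 2 with library totals alone, 0 with DESeq2, 0 with the replicate block and 0 with nuclear copies summed. With copies summed, in settings chosen after seeing the data, it was 0 with library totals alone, with DESeq2, with limma-voom and with the replicate block, and 0 to 11 without 1 library. It stayed 1 with DESeq2 size factors in edgeR, with nuclear counts only, with other filters, with limma-voom and with overlapping genes summed. The median log2 fold change stayed below 0 in all of these settings, and was -0.46 to -0.14 without 1 library, or -0.46 to -0.11 with copies summed. Calls in the nuclear lists, 0 in the reported fit, were 0 in the other settings run with all libraries. The difference in mitochondrial share was -4.74 points with copies added, -4.92 points without the 10 most abundant nuclear genes, and -6.38 to -2.72 points without 1 library. For mt-Nd1 the log2 fold change was 0.026 without shControl replicate 2, with and without copies summed, in a range of -0.31 to 0.026 without 1 library; the cause was not tested. Same-numbered libraries did not deviate together (correlation of -0.05 over 14050 genes), and the replicate block lost the call of mt-Nd3. The shares of ribosomal and transfer RNA genes could not be computed, since those genes had 0 entries in the table used here. Counting error was far below the spread between libraries for the mitochondrial share; for low genes such as Zfp7, with at most 36.8 counts in a library, depth limits the value.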
